A study of Mus musculus with 24 samples.

Results

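The mRNAs of 33 enzymes and carriers of pyruvate oxidation and the tricarboxylic acid (TCA) cycle were followed in N and KP organoids. The list was set by gene symbol and used no measured value as a criterion, although earlier results of these data were known when it was chosen. Of its 33 members, 31 had a row of their own among 19895 entries in the deposited table, while Idh3b was counted only together with Nop56 and Pdha1 only together with Map3k15. Pdk4, with 0 to 43 counts per library, did not reach a count above 0 in every library, so 30 members were tested among 11438 genes. Aconitase and the subunits of succinate dehydrogenase are not on the list.

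Pyruvate made by glycolysis enters mitochondria through the mitochondrial pyruvate carrier and is turned into acetyl-CoA by the pyruvate dehydrogenase (PDH) complex, which the PDH kinases switch off and the PDH phosphatases switch on. The TCA cycle then oxidises acetyl-CoA and passes electrons to the respiratory chain. Pyruvate carboxylase, the malic enzymes, the aspartate aminotransferases, glutamate dehydrogenase and ATP citrate lyase feed the cycle, draw citrate from it for lipid synthesis or carry its intermediates between mitochondria and cytosol, and pancreatic tumour cells are known to use glutamine carbon through several of them.

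N organoids are three-dimensional cultures grown from normal mouse pancreas, whereas KP organoids are grown from pancreatic ductal adenocarcinoma of mice that carry p53 R172H among their tumour alleles. The methods describe Pdx1-Cre, which acts in pancreas progenitors, as the driver of these alleles, and C57Bl/6J as the strain background. Both types were treated with vehicle (DMSO) or with 10 nM CR-31, a rocaglate that inhibits the RNA helicase eIF4A, for 1 h. Each of the 4 groups of lysates had 3 replicates, and each lysate gave polysome-associated mRNA, bound by 3 or more ribosomes, and total mRNA, so that 24 libraries were available from 12 lysates. No source used here says whether replicates were separate mice or separate cultures of 1 line, so the p-values measure the spread between these samples, which may be technical. The comparison of KP with N asks which mRNAs are more abundant or more translated in the tumour cells, and that of CR-31 with vehicle asks which depend on eIF4A.

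Libraries held 47308461 to 267463046 counted reads, and the tested members had between 229 and 110368 counts in each, so the spread between replicates and not counting error limited most values. The 8 ductal markers were all found, with a summed level of 4347 to 8035 RPKM (reads per kilobase of transcript, scaled to the library's reads) in N and 3290 to 5888 RPKM in KP. Acinar markers summed to 2.70 to 4.61 RPKM over all libraries, and endocrine markers to at most 0.143 RPKM. Cela1 made up most of the acinar sum, with group means of 2.86 to 3.91 RPKM. The 6 fibroblast markers reached 0.0825 to 0.606 RPKM in N against 0.0164 to 0.0510 RPKM in KP, and the 5 leukocyte markers 3.61 to 19.7 RPKM against 1.51 to 6.47 RPKM, and the part of these cells in the results was not tested. No sequencing lane or run held both organoid types, so lane and organoid type cannot be told apart. In replicate 2 of both types the vehicle and CR-31 lysates were on different lanes or runs. In these bulk samples, fewer cells of a type and less RNA per cell cannot be told apart either.

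N replicate 3 stood apart for many members. In the vehicle-treated N organoids, polysome-associated Pdhb was at 71.3, 62.2 and 149 CPM (counts scaled to library size) in replicates 1 to 3, and Pdhx, which tethers the dehydrogenase subunit Dld to the PDH core, was at 16.1, 12.4 and 34.4 CPM. Idh2 was at 131, 198 and 356 CPM and Pcx at 21.1, 23.3 and 64.8 CPM in the same libraries. These 4 members were highest in replicate 3, while in total mRNA of the same lysate Pdhb was at 81.2 CPM against 91.3 and 92.2 CPM, and Pdhx at 24.2 CPM against 24.2 and 21.7 CPM. Counts of called members without this replicate are given beside the tests of the members. Total mRNA of CR-31-treated KP replicate 1 also departed from its group, with Sucla2 at 13.9 CPM against 30.6 and 35.5, Dld at 21.2 CPM against 44.5 and 53.8, and Mdh2 at 726 CPM against 538 and 577.

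Within total mRNA of vehicle-treated organoids the members spanned a wide range of levels. Mdh2, the mitochondrial malate dehydrogenase, was the most abundant member at 248 ± 43 RPKM in N and 340 ± 19 RPKM in KP (SD, n = 3 each). Me1, the cytosolic malic enzyme, was second in both, at 137 ± 4.9 RPKM in N and 164 ± 22 RPKM in KP. Citrate synthase (Cs) followed in N at 121 ± 12 RPKM, whereas in KP Got2 at 137 ± 7.3 RPKM stood before Cs at 124 ± 12 RPKM, with overlap. Idh2 at 103 ± 28 RPKM and Got2 at 99.5 ± 12 RPKM were next in N. Idh2 overlapped with both neighbours in that order, while the lowest Cs value (110 RPKM) lay above the highest Got2 value (108 RPKM).

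Of the 4 PDH kinases, Pdk1 was the most abundant, at 15.2 ± 2.0 RPKM in N and 19 ± 7.1 RPKM in KP. Pdk3 at 9.01 ± 1.9 RPKM and Pdk2 at 7.58 ± 4.7 RPKM in N did not differ beyond their spread. Pdk4 was at 0.0599 RPKM in N and 0.00671 RPKM in KP, the lowest of 31 members in both, and had 0 counts in several KP libraries. The phosphatases Pdp2 and Pdp1 stood at 2.77 and 1.47 RPKM in N. These values of Pdk4, Pdp1 and Pdp2 were the lowest of all members in N, whereas Pdk1 was near the cycle enzymes Sucla2 at 14.7 RPKM and Ogdh at 13.4 RPKM. The carrier subunits Mpc1 and Mpc2 were at 87.3 ± 28 and 36.5 ± 12 RPKM in N.

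**Figure D1:**
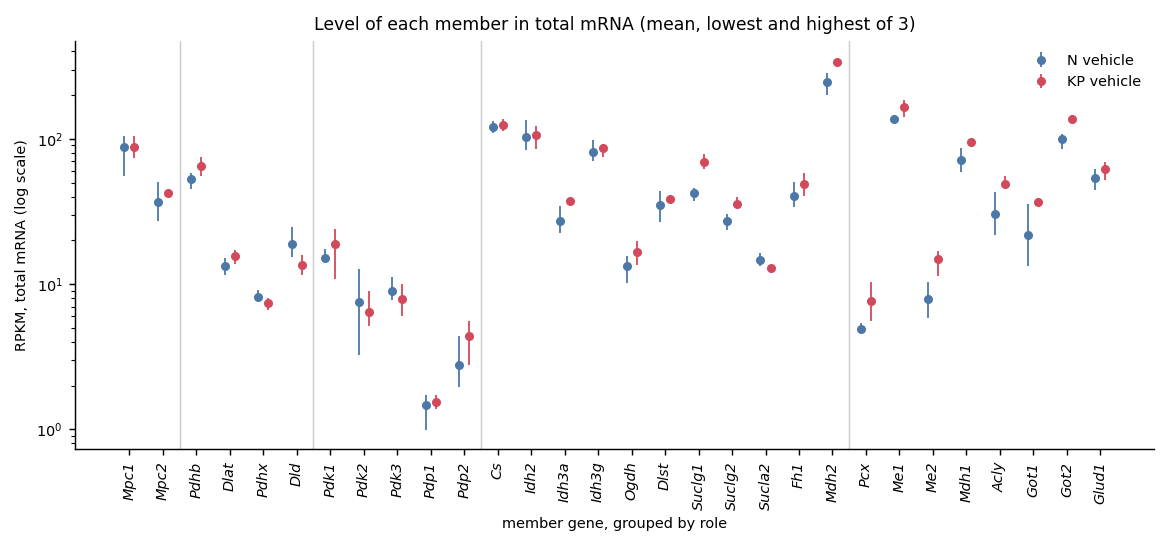
Level of 30 members in total mRNA of vehicle-treated N (blue) and KP (red) organoids in RPKM on a log axis, grouped by role from left to right (carrier, PDH complex, PDH kinases and phosphatases, cycle enzymes, feeding and shuttle enzymes). Points are means and bars run from the lowest to the highest of 3 replicates, and Mdh2 is highest at 248 RPKM in N while Pdp1 is lowest of those drawn at 1.47 RPKM.

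Polysome-associated mRNA of several cycle and shuttle enzymes was higher in vehicle-treated KP than in N organoids. Of 30 members, 8 were called higher and 2 lower (edgeR's quasi-likelihood test, Benjamini-Hochberg adjusted p under 0.25, the threshold of the study), against 20.9% of all genes called higher and 22.2% called lower. At an adjusted p under 0.05, 4 members were called, all higher, against 917 of 11438 genes higher and 826 lower. The share called higher was thus near the background, and over members the median log2 fold change was 0.12 (all genes tested, -0.03). The cycle had 3 of 11 members called higher and 1 lower, the carrier 2 of 2 higher, the feeding and shuttle enzymes 3 of 8 higher, the PDH complex 1 of 4 lower and the kinases and phosphatases 0 of 5.

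Suclg1 (chr6:73248382-73276911 on GRCm38, plus strand) encodes the alpha subunit of succinyl-CoA ligase, which pairs with either of 2 beta subunits. Its polysome-associated mRNA was at 57.3, 58.8 and 78.4 CPM in N and at 130, 125 and 114 CPM in KP. Every KP library lay above every N library, and the log2 fold change was 0.92 ± 0.21 (SE, edgeR adjusted p = 0.0158). The beta subunits went different ways. Suclg2, of the GTP-forming ligase, was at 80.6, 81.9 and 90.7 CPM in N and 102, 113 and 105 CPM in KP, without overlap, and rose by 0.33 ± 0.15 on the log2 scale (edgeR adjusted p = 0.156). Sucla2, of the ATP-forming ligase, was at 37, 43.9 and 56 CPM in N and 35.5, 37.1 and 33.3 CPM in KP, and fell by 0.37 ± 0.21 (edgeR adjusted p = 0.235). The Sucla2 groups overlapped, the difference was -0.20 without N replicate 3, and that call was lost in 16 of 26 other settings. The call of Suclg2 was lost in 11 of 26.

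Mdh2 (chr5:135778480-135790398, plus strand), which turns malate into oxaloacetate at the end of the cycle, was at 272, 258 and 278 CPM in N and 453, 496 and 441 CPM in KP, both tight groups far apart. The log2 fold change was 0.78 ± 0.19 (edgeR adjusted p = 0.0182). The other cycle members Cs, Idh2, Idh3a, Idh3g, Ogdh, Dlst and Fh1 had log2 fold changes from -0.15 (Ogdh) to 0.33 (Idh3a), none called.

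Among the enzymes that feed the cycle or shuttle its intermediates, Me2, the mitochondrial malic enzyme that makes pyruvate from malate, had the largest change of all members. It was at 22.4, 16.2 and 12.6 CPM in N and 40.9, 47.3 and 28.3 CPM in KP, a log2 fold change of 1.19 ± 0.29 (edgeR adjusted p = 0.0221). The lowest KP value stood above the highest N value. Me1, its cytosolic counterpart, was at 432 to 450 CPM in N and 479 to 575 CPM in KP and was not called (log2 fold change 0.21 ± 0.17, edgeR adjusted p = 0.393).

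The aspartate aminotransferases, which exchange amino groups between glutamate and oxaloacetate, were both called. Mitochondrial Got2 was at 215, 207 and 224 CPM in N and 267, 322 and 348 CPM in KP (log2 fold change 0.54 ± 0.18, edgeR adjusted p = 0.0682). Cytosolic Got1 was at 53.6, 22.5 and 34.9 CPM in N and 67.0, 65.9 and 59.7 CPM in KP (log2 fold change 0.80 ± 0.34, edgeR adjusted p = 0.125). Neither overlapped between the groups, but Got1 varied more than 2-fold within N, and its log2 difference was 0.52 without N replicate 2. Pcx (0.51), Mdh1 (0.36), Acly (0.05) and Glud1 (-0.09) were not called, with SE of 0.20 to 0.46.

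The carrier subunits were both called higher in polysome-associated mRNA. Mpc1 (chr17:8282904-8297661, plus strand) was at 55.8, 71.3 and 71.3 CPM in N and 128, 140 and 109 CPM in KP, with a log2 fold change of 0.93 ± 0.24 (edgeR adjusted p = 0.0265). Mpc2 was at 24.5, 29.8 and 27.1 CPM in N and 45.6, 35.5 and 36.4 CPM in KP, with a log2 fold change of 0.53 ± 0.24 (edgeR adjusted p = 0.144). Both subunits, which together form the carrier, were thus without overlap between N and KP. The Mpc2 call was lost in 6 of 26 other settings, and its log2 fold change was 0.23 at the lowest.

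In the PDH complex, Dld (chr12:31331277-31351453, minus strand), the dihydrolipoamide dehydrogenase that the PDH and 2-oxoglutarate dehydrogenase complexes share, was lower in KP. It was at 68.7, 63.9 and 103 CPM in N and 41.6, 44.5 and 51.7 CPM in KP, and fell by 0.77 ± 0.25 on the log2 scale (edgeR adjusted p = 0.0557). All KP values were below all N values. Its partners Pdhb, Dlat and Pdhx had log2 fold changes of 0.07, -0.02 and -0.28, none called, and the kinases and phosphatases ranged from -0.18 (Pdk3) to 0.50 (Pdk1).

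Without N replicate 3 the number of members called in polysome-associated mRNA was 15 (14 higher, 1 lower), against 26.3% of all genes called higher and 26.3% lower in that fit. Without KP replicate 1 it was 6 (5 higher, 1 lower), against 13% and 11.5%. Suclg1, Mdh2, Me2, Mpc1 and Dld kept an adjusted p under 0.25 in all 26 other settings tried. For Dld the log2 difference without N replicate 3 was -0.53.

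**Figure D2:**
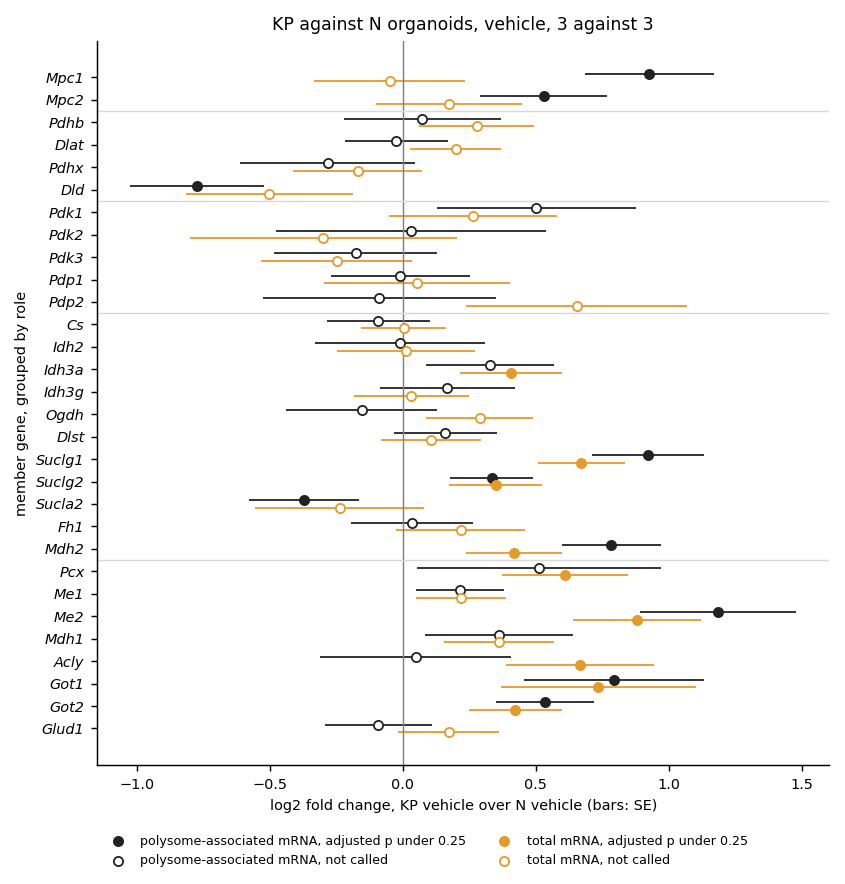
Log2 fold change of vehicle-treated KP over N organoids for 30 members, grouped by role, in polysome-associated mRNA (black) and total mRNA (orange), with bars for the SE from the edgeR fit of 3 against 3 replicates. Filled points have an adjusted p under 0.25. Mpc1 stands at 0.93 in polysome-associated and -0.05 in total mRNA, while Suclg1 and Me2 are filled in both.

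In total mRNA 9 members were called higher and 0 lower in vehicle-treated KP organoids, against 13.1% and 15.4% of all genes. In all, 24 of 30 members had a positive log2 fold change, with a median of 0.22 (all genes tested, -0.03). An offset that removed the dependence on coding length moved the median of all genes from -0.03 to 0.08. The members' 0.22 is from the fit without that offset and cannot be set against 0.08. Suclg1 was at 67.3, 70.9 and 62.9 CPM in N and 102, 123 and 95.8 CPM in KP (log2 fold change 0.67 ± 0.16, edgeR adjusted p = 0.027). Me2 was at 26.8, 20.8 and 17.4 CPM in N and 44.4, 44.3 and 31.1 CPM in KP (log2 fold change 0.88 ± 0.24, edgeR adjusted p = 0.0417). Neither gene overlapped between the groups, and both calls held in all 26 other settings.

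The other 7 calls in total mRNA were weaker. Pcx, pyruvate carboxylase, which makes oxaloacetate from pyruvate, was at 20.1, 22.3 and 26.8 CPM in N and 24.5, 33.6 and 47.5 CPM in KP, with an overlap, and rose by 0.61 ± 0.24 (edgeR adjusted p = 0.133), and by 0.33 without KP vehicle replicate 3. Acly, ATP citrate lyase, which makes cytosolic acetyl-CoA from citrate, was at 199, 136 and 116 CPM in N and 215, 275 and 228 CPM in KP, a log2 fold change of 0.67 ± 0.28 (edgeR adjusted p = 0.163). Got2 (0.42), Mdh2 (0.42), Idh3a (0.41), Got1 (0.74) and Suclg2 (0.35) had edgeR adjusted p of 0.162 to 0.246. Got1 was at 1.21 without N vehicle replicate 1 (edgeR adjusted p = 0.0544). The number called was 3 without N replicate 3 (of all genes, 8.25% higher and 10.7% lower), and 3 without its vehicle lysate alone (16% of all genes called in either direction). It was also 3 when KP vehicle replicate 1, 2 or 3 was left out (14.1%, 20.5% and 23.4% of all genes called) and without KP replicate 2 or 3 of both treatments (19.5% and 21.9%). Without KP replicate 1 of both treatments it was 6 (18.1%), without N vehicle replicate 2 it was 5 (20.2%) and without N replicate 2 of both treatments 4 (19.8%), against 28.5% of all genes called with every lysate.

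Mpc1 was called in polysome-associated but not in total mRNA. Its total mRNA was at 52.9, 105 and 115 CPM in N and 70.8, 86.8 and 106 CPM in KP, so the groups overlapped and the log2 fold change was -0.05 ± 0.28 (edgeR adjusted p = 0.941). Mpc2 in total mRNA (0.17 ± 0.27, edgeR adjusted p = 0.751) and Dld (-0.50 ± 0.32, edgeR adjusted p = 0.361) were not called either. Whether the change in polysome-associated mRNA exceeded that in total mRNA was tested as translational efficiency, the interaction of fraction and organoid type in 1 edgeR model with the lysate as a block.

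No member was called in translational efficiency between KP and N, and of all genes 0% were. At an unadjusted p under 0.05 there were 4 members and 1296 of 11438 genes. Mpc1 had the smallest p of the members, with a log2 change in efficiency of 0.88 ± 0.25 (edgeR adjusted p = 0.433). Acly had -0.69 ± 0.24, Pdp2 -0.74 ± 0.27 and Ogdh -0.52 ± 0.23 at the same adjusted p of 0.433 in edgeR, and Pdp2 stood at -0.43 without KP replicate 1. The median over members was -0.01. DESeq2 called 2 members (1 higher, 1 lower) and 350 genes, and a regression on total mRNA, which is how the study defined efficiency, called 4 members and 1197 genes. In that regression Mpc1 (0.88) and Mdh2 (0.75) were higher and Acly (-0.83) and Dld (-0.85) lower in KP. Without N replicate 3, 12 members (9 higher, 3 lower) and 4097 genes (20% higher, 15.8% lower) were called in edgeR, with Mpc1 at 0.74 (edgeR adjusted p = 0.106). Without only the vehicle lysate of N replicate 3 there were 4 members and 18.8% of all genes, and without only its CR-31 lysate 2 members and 3.54% of all genes.

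The changes in efficiency ran with coding length. The 30 members have coding sequences of 381 (Mpc2) to 3537 bases (Pcx) with a median of 1359 (GENCODE M21, GRCm38). Spearman's rho between the KP-to-N change in efficiency and coding length was -0.63 across the members and -0.55 across 11136 genes, which share libraries and are not independent. Short Mpc1 (501 bases) was at the top and long Acly (3303 bases) and Ogdh (3102 bases) near the bottom, although Pcx (0.01 ± 0.33) did not follow. With 5′-UTR length the rho of the members was 0.18. With an offset for coding length, 0% of genes were called higher and 0% lower, Mpc1 was at 0.58 (edgeR adjusted p = 0.779), and Acly and Ogdh were at -0.34 and -0.20. What made the changes run with length was not tested.

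**Figure D3:**
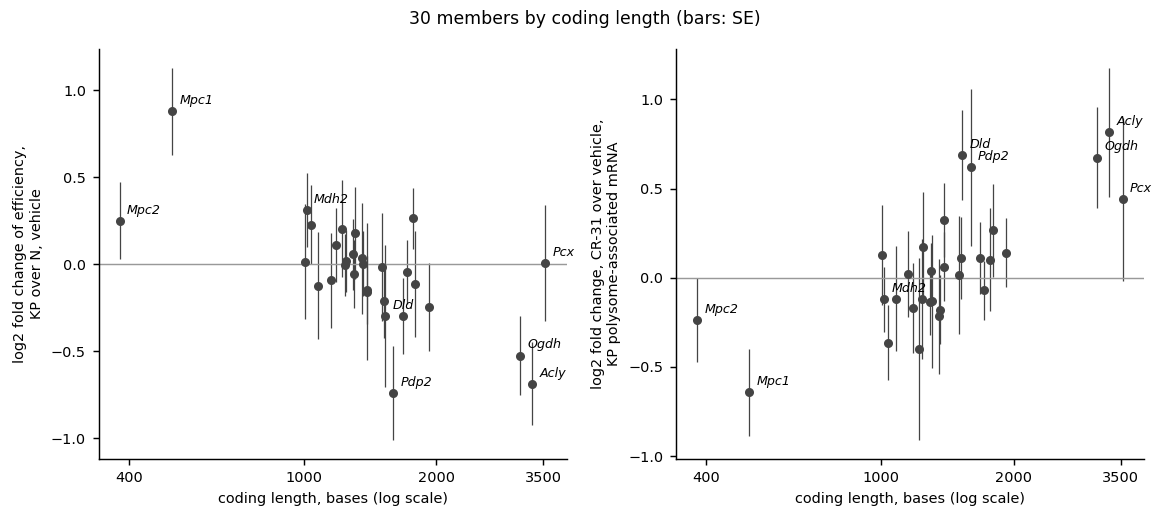
Coding length of 30 members in bases (log axis) against the log2 change of translational efficiency in KP over N with vehicle (left) and the log2 change of polysome-associated mRNA with CR-31 over vehicle in KP (right), with bars for the SE. Spearman's rho is -0.63 on the left and 0.71 on the right, and the shortest and longest members are named.

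In CR-31-treated organoids the difference between KP and N was measured in the lysates treated with the compound, with spread estimated from the same fit. These lysates were paired by replicate number with the vehicle lysates and shared their replicate deviations, so the comparison is not an independent repeat. In polysome-associated mRNA 8 members were called higher and 0 lower, against 11.2% and 13.8% of all genes. Of the 11 cycle members all 11 had a positive log2 fold change, although only 4 were called, and the median over 30 members was 0.30 (all genes tested, -0.02). Suclg1 was at 46.2, 47.5 and 69.6 CPM in N and 98.5, 86.5 and 102 CPM in KP (log2 fold change 0.81 ± 0.21, edgeR adjusted p = 0.0424), again without overlap.

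Suclg2 was at 75.3, 70.7 and 77.4 CPM in N and 106, 111 and 111 CPM in KP with CR-31 (log2 fold change 0.55 ± 0.15, edgeR adjusted p = 0.0554). Mdh2 (0.62), Me2 (0.95), Idh3a (0.77), Got2 (0.55), Got1 (0.83) and Pcx (1.05) had edgeR adjusted p of 0.067 to 0.197. Mpc1, Mpc2, Dld and Sucla2, which were called with vehicle, were not called with CR-31. Mpc1 was at 48.7, 80.2 and 85.6 CPM in N and 67.0, 77.7 and 96.9 CPM in KP (log2 fold change 0.17 ± 0.24, edgeR adjusted p = 0.724), and Dld was at 88.9, 84.7 and 49.8 CPM in N and 73.0, 72.8 and 76.2 CPM in KP (log2 fold change -0.01 ± 0.25, edgeR adjusted p = 0.988). Both sets overlapped. The number called was 8 without N replicate 3 (of all genes, 16% higher and 18.7% lower). It was 5 without N replicate 2 (17.5% of all genes called in either direction), 4 without KP CR-31 replicate 1 (9.48%) and 5 without KP CR-31 replicate 3 (16.9%). Without KP replicate 1 or KP replicate 3 of both treatments it was 4 (8.03% and 14.9%), against 25% of all genes called with every lysate. With the offset for coding length 15 members were called, all higher, against 17.3% of all genes higher and 13.2% lower.

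In total mRNA with CR-31, 10 members were called higher and 1 lower, against 18.9% and 21% of all genes. Pcx was at 27.5, 26.4 and 33.8 CPM in N and 65.1, 59.7 and 72.8 CPM in KP, far apart, with a log2 fold change of 1.17 ± 0.24 (edgeR adjusted p = 0.0142). Suclg1 (0.76, edgeR adjusted p = 0.0168), Got2 (0.71, 0.0278) and Me2 (0.88, 0.0374) also passed an adjusted p of 0.05. Of 11438 genes 586 were called higher and 621 lower at 0.05. Ogdh, the substrate-binding subunit of the 2-oxoglutarate dehydrogenase complex, was at 148, 121 and 110 CPM in N and 214, 201 and 188 CPM in KP (log2 fold change 0.67 ± 0.20, edgeR adjusted p = 0.0548). Mdh2 (0.57), Got1 (0.87), Acly (0.62), Suclg2 (0.32) and Dlst (0.34) had edgeR adjusted p of 0.0618 to 0.244, and Dld was lower (-0.76 ± 0.32, edgeR adjusted p = 0.136). Without KP CR-31 replicate 1 the Dld difference was -0.45 (edgeR adjusted p = 0.363), and without N CR-31 replicate 3 it was -0.55 (edgeR adjusted p = 0.344), so neither fit called it. Acly was at 0.37 without N CR-31 replicate 3, Dlst at 0.22 without KP CR-31 replicate 1 and Suclg2 at 0.21 without KP CR-31 replicate 2. The number called was 6 without N replicate 3 (of all genes, 13.5% higher and 13.4% lower). It was 7 when N CR-31 replicate 3, N replicate 2, KP CR-31 replicate 1 or KP replicate 1 was left out, with 28.7%, 32%, 18.6% and 15.7% of all genes called in these fits, against 39.9% with every lysate. The median of the members was 0.17 (all genes tested, -0.05). With the offset for coding length the median of all genes was 0.06, which cannot be set against the 0.17 of the fit without it.

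Got1, Got2, Mdh2, Me2, Suclg1 and Suclg2 were called higher in KP in all 4 comparisons, that is with vehicle and with CR-31 and in both fractions. This was 6 of 30 members against 7.49% of all genes, while 0 members and 9.35% of all genes were called lower in all 4. In total mRNA the call of Suclg2 was lost in 16 of 26 other settings with vehicle and 17 of 26 with CR-31, and that of Got1 in 14 and 6. In polysome-associated mRNA these losses were 11 and 0 for Suclg2 and 4 and 9 for Got1. Without N replicate 3, or without any single KP vehicle lysate, 3 members were called in total mRNA with vehicle, so at most 3 could then be called in all 4. The fractions came from the same lysates, the vehicle and CR-31 lysates were paired by replicate, and the fits pooled their spread. The 4 comparisons are therefore not independent.

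**Figure D4:**
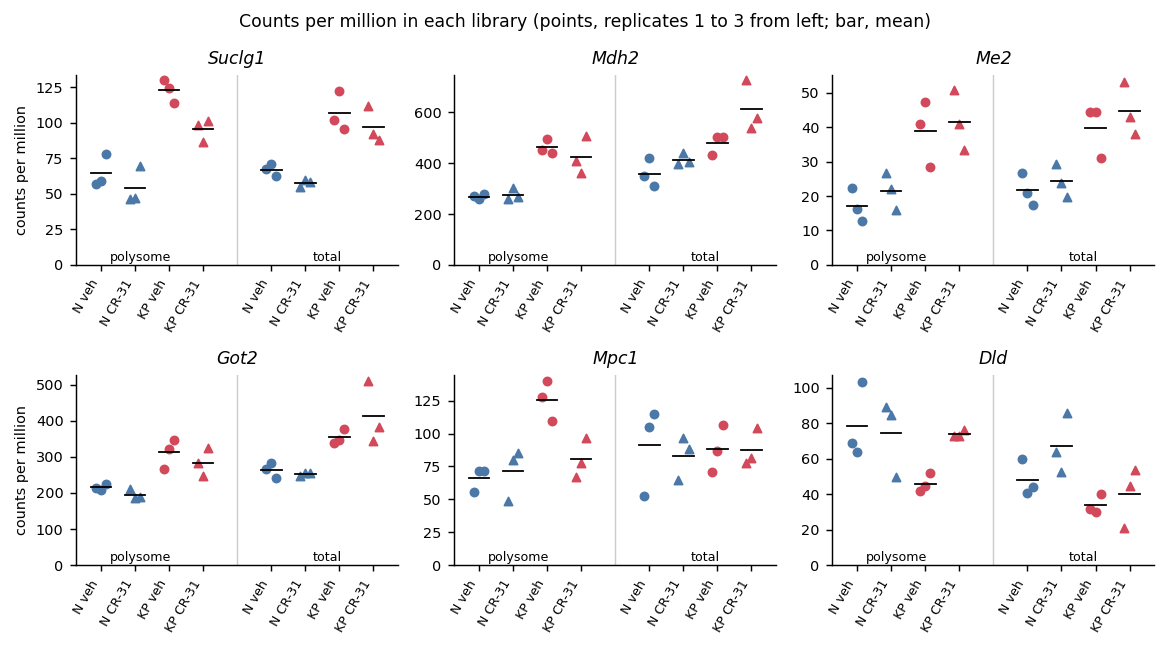
CPM of Suclg1, Mdh2, Me2, Got2, Mpc1 and Dld in each of 24 libraries, with polysome-associated mRNA left and total mRNA right in each panel. Blue is N, red is KP, circles are vehicle, triangles are CR-31 and bars are means of 3. The 3 KP vehicle points of Suclg1 in polysome-associated mRNA lie at 114 to 130 CPM, above the N vehicle points at 57.3 to 78.4 CPM.

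CR-31 itself gave no call among the members in the fits without a replicate block. In KP organoids 0% of all genes were called in polysome-associated mRNA, 0% in total mRNA and 0% in translational efficiency. At an unadjusted p under 0.05 there were 4, 3 and 1 members and 406, 109 and 627 genes in these edgeR fits. DESeq2 called 0 members in each, and 0, 8 and 0 genes, and without N replicate 3 edgeR still called 0 members in each. The members nearest to a call in polysome-associated mRNA were Dld, Mpc1 and Ogdh.

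Polysome-associated Dld was at 41.6, 44.5 and 51.7 CPM with vehicle and 73.0, 72.8 and 76.2 CPM with CR-31 in KP, without overlap, a log2 difference of 0.69 ± 0.25. Mpc1 was at 128, 140 and 109 CPM with vehicle and 67.0, 77.7 and 96.9 CPM with CR-31, a log2 difference of -0.64 ± 0.24 and again no overlap. Ogdh was at 68.9, 96.8 and 126 CPM and then 138, 161 and 165 CPM, a log2 difference of 0.67 ± 0.28. Acly was at 161, 168 and 200 CPM and then 286, 329 and 317 CPM, a log2 difference of 0.82 ± 0.36. None of these 4 passed the adjustment over all genes.

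Replicate numbers paired vehicle with CR-31 within each organoid type, and a block for the replicate changed the calls. In KP polysome-associated mRNA 6 members (4 higher, 2 lower) and 2213 genes were then called, against 8.30% of all genes higher and 11.1% lower. Mpc1 fell by 0.65 ± 0.18 and Suclg1 by 0.36 ± 0.14 (blocked edgeR adjusted p = 0.192 and 0.207). Ogdh (0.71 ± 0.22), Acly (0.82 ± 0.27), Pdp2 (0.62 ± 0.20) and Dld (0.69 ± 0.26) were higher with CR-31 (blocked edgeR adjusted p of 0.192 to 0.204). The members' share of calls was near the background.

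Without N replicate 3, which enters through the shared spread, the block called 14 members (7 higher, 7 lower), against 25.4% of genes higher and 29.5% lower. Dld, Ogdh and Mpc1 then had blocked edgeR adjusted p of 0.000627, 0.00222 and 0.00373. With the block and an offset for coding length it called 2 members, Mpc1 (-0.44) and Pdp2 (0.60), each at a blocked edgeR adjusted p of 0.249, against 2.47% and 3.03% of genes. Across the 30 members the change in KP polysome-associated mRNA had a rho of 0.71 with coding length (all genes, 0.40), and 0.02 with 5′-UTR length. By replicate pair the rho over members was 0.77, 0.65 and 0.55 in KP and 0.52, 0.09 and -0.19 in N.

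In total mRNA of KP organoids the smallest p belonged to Pcx, Ogdh and Acly. Pcx was at 24.5, 33.6 and 47.5 CPM with vehicle and 65.1, 59.7 and 72.8 CPM with CR-31 (log2 difference 0.90 ± 0.24). Ogdh was at 96.7, 126 and 146 CPM and then 214, 201 and 188 CPM (log2 difference 0.71 ± 0.20). Acly was at 215, 275 and 228 CPM and then 360, 414 and 377 CPM (log2 difference 0.68 ± 0.28). Every CR-31 value of these 3 genes was above every vehicle value, and they were the 3 members at an unadjusted p under 0.05, yet none passed the adjustment over all genes. In translational efficiency Mpc1 (-0.59 ± 0.25), Mdh2 (-0.41 ± 0.21) and Glud1 (0.40 ± 0.22) had the smallest p of the members, at an edgeR adjusted p of 0.529 each. Without KP CR-31 replicate 1 Glud1 stood at 0.18, and without KP replicate 1 of both treatments Mdh2 stood at -0.24, and at -0.62 without KP replicate 3. In the regression with the replicate block they were at 0.06 (Glud1) and -0.06 (Mdh2). The regression with the replicate block called 3 members in efficiency, Mpc1 (-0.64), Mdh1 (0.56) and Dld (0.79), and 1912 genes, and the block without N replicate 3 called 10 (5 higher, 5 lower), against 24.1% of genes higher and 22% lower.

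In N organoids likewise 0% of all genes were called with CR-31 in polysome-associated mRNA, 0% in total mRNA and 0% in translational efficiency. At an unadjusted p under 0.05 edgeR had 0, 2 and 0 members and 48, 297 and 328 genes, and DESeq2 called 0 members in each and 0, 13 and 0 genes. In polysome-associated mRNA the smallest p belonged to Idh3a (-0.43 ± 0.24), Pdhb (-0.50 ± 0.30) and Idh2 (-0.47 ± 0.32). All 3 differences rested in part on vehicle replicate 3, and without it Idh3a was at -0.15, Pdhb at 0.01 and Idh2 at 0.02. Idh2 was at -0.75 without vehicle replicate 1. Without N replicate 3 edgeR called 0 members in each of the 3 readouts.

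In total mRNA of N, Acly was at 199, 136 and 116 CPM with vehicle and 340, 253 and 155 CPM with CR-31 (log2 difference 0.73 ± 0.28), with overlap between the groups but a higher value in each pair. Mdh1, the cytosolic malate dehydrogenase, was at 139, 195 and 140 CPM and then 170, 222 and 277 CPM (log2 difference 0.49 ± 0.21). Dlst, the succinyl-transferring core of the 2-oxoglutarate dehydrogenase complex, had -0.33 ± 0.19. Without N CR-31 replicate 1 Acly was at 0.44, without N replicate 3 Mdh1 was at 0.23 and without N vehicle replicate 1 Dlst was at -0.19. In efficiency Acly (-0.47), Ogdh (-0.44) and Dlat (-0.46) had the smallest p, at an edgeR adjusted p of 0.736 each, and stood at -0.11, -0.08 and -0.01 without N replicate 3. With the replicate block and without N replicate 3, 8 members were called in polysome-associated mRNA of N, against 9.68% of genes higher and 5.37% lower. Pcx, Mdh1, Me2, Acly and Dld were then higher and Glud1, Dlst and Suclg1 lower.

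Pair by pair, 5 members (Acly, Mdh1, Mdh2, Ogdh and Pcx) had more total mRNA with CR-31 in all 6 pairs of same-numbered lysates, and 3 (Fh1, Pdk1 and Suclg2) had less in all 6, against 7.27% and 5.87% of all genes. In polysome-associated mRNA Dlst, Got1, Idh3g and Suclg1 were lower in all 6 pairs and no member was higher in all 6, against 2.59% and 2.50% of all genes. Acly in polysome-associated mRNA showed how N replicate 3 departed, with log2 differences of 0.85, 1.02 and 0.68 in KP and 0.78, 0.67 and -0.77 in N. Dld had 0.84, 0.76 and 0.57 in KP and 0.37, 0.39 and -1.06 in N.

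Whether CR-31 acted differently in KP and N was tested as the difference of the 2 effects in polysome-associated mRNA. No member was called, with or without N replicate 3, and 0% of all genes were, with 1 member and 258 genes at an unadjusted p under 0.05 in edgeR and 0 genes called by DESeq2. Mpc1 had the smallest p, with a difference of -0.76 ± 0.34 on the log2 scale (edgeR adjusted p = 0.999). Its log2 changes by pair were -0.91, -0.79 and -0.16 in KP and -0.20, 0.15 and 0.25 in N. Dld (0.76 ± 0.35) and Sucla2 (0.60 ± 0.29) followed at the same adjusted p in edgeR, and without N replicate 3 these were 0.29 and 0.30. With the replicate block and without N replicate 3, 7 members (4 higher, 3 lower) were called, against 11.1% of genes higher and 15.9% lower, and Mpc1 stood at -0.65 (blocked edgeR adjusted p = 0.112).

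**Figure D5:**
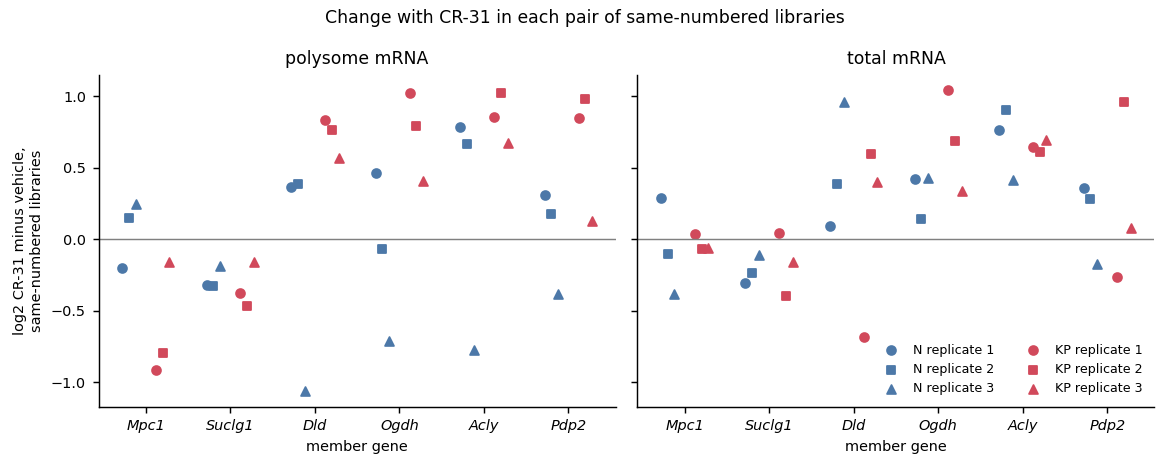
Log2 difference between CR-31 and vehicle in each pair of same-numbered libraries for Mpc1, Suclg1, Dld, Ogdh, Acly and Pdp2 in polysome-associated mRNA (left) and total mRNA (right), with N in blue, KP in red and a symbol for each replicate. In polysome-associated mRNA the 3 KP pairs of Dld lie at 0.57 to 0.84, while N replicate 3 lies at -1.06.

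Within a lysate, members were on the whole less represented in polysome-associated than in total mRNA. In vehicle-treated N organoids 0 members were called higher in polysomes and 10 lower, against 8.83% and 6.36% of all genes. Their median log2 ratio was -0.20 (all genes tested, -0.05). Pdk3 (-0.48), Got1 (-0.46), Me2 (-0.41) and Fh1 (-0.50) had edgeR adjusted p of 0.0559 to 0.0909. Mdh2, Dlst, Suclg2, Mpc1, Mpc2 and Got2 followed with log2 ratios of -0.34 to -0.46 (edgeR adjusted p of 0.118 to 0.235). Mdh2 was at -0.29 and Mpc2 at -0.17 without N vehicle replicate 2, and Mpc1 at -0.26 without N vehicle replicate 3 and -0.67 without N vehicle replicate 1. The count was 17, all lower, without N replicate 3 (of all genes, 15% higher and 20.7% lower). It was 0 without N vehicle replicate 2 (1.75% of all genes called in either direction) or N replicate 2 of both treatments (2.83%), 6 without N vehicle replicate 1 (12.5%) and 5 without N replicate 1 of both treatments (10.4%). It was 5 without KP replicate 2 or 3 (9.79% and 10.5%), against 15.2% of all genes called with every lysate.

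In vehicle-treated KP organoids 1 member was called higher and 11 lower, against 14.2% and 13.3% of all genes, with a median log2 ratio of -0.26 (all genes tested, -0.02). Fh1, fumarase, was lower at -0.71 ± 0.15 (edgeR adjusted p = 0.0469), and Pdp2 at -0.84 ± 0.19 (edgeR adjusted p = 0.0525). Got1, Pdk3, Glud1, Acly, Suclg2, Ogdh, Dlst, Cs and Me1 had log2 ratios of -0.30 to -0.53 (edgeR adjusted p of 0.0698 to 0.191). Mpc1 was the 1 member called higher, at 0.43 ± 0.18 (edgeR adjusted p = 0.165), whereas in N its ratio was -0.44 ± 0.18 (edgeR adjusted p = 0.201). Without KP vehicle replicate 1 the KP ratio was 0.28 for Mpc1 and -0.53 for Pdp2, and without KP vehicle replicate 3 it was 0.68 for Mpc1. The count was 20 (2 higher, 18 lower) without N replicate 3 (of all genes, 23.1% higher and 24.7% lower). It was 0, 1 and 4 without KP vehicle replicates 1, 2 and 3, with 0.481%, 0.525% and 6.08% of all genes called in either direction. Without KP replicates 1, 2 and 3 of both treatments it was 7, 1 and 0, with 13.9%, 0.236% and 0% of all genes called, against 27.5% with every lysate.

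Over all 12 lysates, Dlst, Fh1, Got1, Got2, Mdh2, Me1, Pdk3 and Pdp2 had a ratio below 0 in each, and no member was above 0 in each, against 2.99% of all genes below and 3.44% above 0 in each. Fh1 had a median log2 ratio of -0.59 (range -0.88 to -0.13) and Got1 of -0.52 (range -0.77 to -0.26). Dld was above 0 in 11 of 12 lysates with a median of 0.47, the exception being CR-31-treated N replicate 3, and reached 1.80 in CR-31-treated KP replicate 1. Sucla2 was above 0 in 9 of 12 lysates with a median of 0.24. The median over members was -0.31, -0.43 and -0.02 in N vehicle replicates 1 to 3, and -0.21 to -0.28 in the 6 KP lysates.

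Coding length ran with these ratios too, and in opposite directions. Spearman's rho over the members was 0.49 in vehicle-treated N and -0.25 in vehicle-treated KP organoids (all genes, 0.47 and -0.15), values that describe genes of the same libraries. By lysate the rho over all genes was 0.32, 0.58 and 0.13 in N vehicle replicates 1 to 3 and -0.29, -0.13 and 0.03 in KP. With the offset for length, 8 members were called in N, all lower, against 7.08% of all genes higher and 5.75% lower. In KP 14 were called (1 higher, 13 lower), against 14.4% and 16.8%.

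Genes around the pathway were counted as context. Of 40 genes for lipoylation, mitochondrial carriers, branched-chain ketoacid dehydrogenase, succinate dehydrogenase, glutamine entry and lactate or acetate use, 34 were tested. In polysome-associated mRNA of vehicle-treated KP against N organoids 15 were called higher and 6 lower, against 20.9% and 22.2% of all genes, with a median log2 fold change of 0.38. In total mRNA 12 were called higher and 4 lower, against 13.1% and 15.4%. Among those with the smallest p were Gpt, an alanine aminotransferase that makes pyruvate (2.56 ± 0.28, edgeR adjusted p = 0.000647), Slc25a10, the dicarboxylate carrier (1.59 ± 0.25, edgeR adjusted p = 0.00379), and Bckdk, the kinase of the branched-chain complex (1.20 ± 0.19, edgeR adjusted p = 0.00379). With CR-31 the same comparison called 9 higher and 2 lower in polysome-associated mRNA (all genes, 11.2% and 13.8%) and 17 higher and 2 lower in total mRNA (18.9% and 21%). Leaving out N replicate 3 gave 16 higher and 6 lower in polysome-associated mRNA with vehicle (all genes, 26.3% and 26.3%). In total mRNA with vehicle it gave 8 and 2 (8.25% and 10.7%). With CR-31 it gave 14 and 3 in polysome-associated and 16 and 2 in total mRNA. By contrast, CR-31 against vehicle called 0 context genes in either organoid type in the fits without a replicate block. With the block 13 (4 higher, 9 lower) were called in polysome-associated mRNA of KP, against the 8.30% and 11.1% of all genes given above, and 0 in that of N. With the block and without N replicate 3, 25 were called in KP, against 25.4% of all genes higher and 29.5% lower. In N 7 were then called, against 9.68% and 5.37%. With the block and the length offset 6 were called in KP, against 2.47% and 3.03%, and 0 in N.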

How the data were processed

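Total and polysome-associated mRNA of 12 organoid lysates was sequenced by the authors in reads of 100 bases. Per the labels and the study's methods, reads were aligned with HISAT2, reads with several matches were discarded, and counts per RefSeq gene were obtained with a script that uses coding transcripts. The methods name a human genome (hg38), while the genes in the table are mouse genes. The authors deposited raw counts per gene and library and, beside them, RPKM values, and replicates were not pooled. Because multiply mapping reads were discarded, members with near-identical copies can be undercounted. Symbols and values of 1042 entries with several symbols and 134 entries of repeated symbols were not used.

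Counts of the 11438 genes above 0 in all 24 libraries were normalised with TMM, and each fraction was fitted in edgeR 4.0.16 (R 4.3.3) with 1 coefficient per group and tested by quasi-likelihood. Translational efficiency and the polysome-to-total ratio came from 1 model of all libraries with the lysate as a block. P-values were adjusted by Benjamini-Hochberg over all genes, with a threshold of 0.25 as in the study. CPM are per TMM-scaled library, and RPKM were used for levels between genes, with no test. A prior count of 0.5 entered the log2 ratios of pairs and lysates. Gene positions and coding lengths were taken from GENCODE M21. Figures and summaries used Python 3.11.15, pandas 2.3.3, numpy 2.4.6, scipy 1.17.1 and matplotlib 3.10.9.

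Pairing by the replicate numbers of the labels was checked by correlating, across genes, how same-numbered libraries deviated from their group means. Between vehicle and CR-31 Pearson's r was 0.55 to 0.89 for N and 0.45 to 0.80 for KP. All 6 correlations of each type exceeded 0.1, and the numbers were taken to pair these lysates. Between N and KP r was -0.14 to 0.28 with vehicle and -0.17 to 0.21 with CR-31, with 2 of 6 above 0.1 in each case, and the numbers were not taken to pair them. A chi-square per gene of 251.4 to 1512 between replicates showed no library to be a repeat of another of its own group. Libraries of different groups were not compared in this way.

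The members and lists were chosen with earlier results of these data known. In each comparison the called members, up to the 12 with the smallest p, are given with statistics, or the 3 with the smallest p where fewer than 3 were called. Of the genes around the pathway those with the smallest p in vehicle-treated KP against N polysome-associated mRNA are named. Some items under these rules are not reported here. Alternatives were RLE and upper-quartile scaling, other filters on low counts, DESeq2 1.42.0, limma 3.58.1 for the regression on total mRNA, replicate block, lane, groups compared alone and each replicate left out. The offset for coding length, a spline in the edgeR fit, was added after seeing the data.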

Additional observations from a re-analysis of the deposited data

Results flagged for a closer look

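Suclg2, the beta subunit of the GTP-forming succinyl-CoA ligase, drew attention because every KP pair moved one way with CR-31 and every N pair the other. In polysome-associated mRNA the log2 differences were 0.09, 0.03 and 0.10 in KP and -0.11, -0.23 and -0.24 in N. The difference between the effects was 0.22 ± 0.22 on the log2 scale (edgeR adjusted p = 0.999), so it was within the error of that fit. The fit had no replicate block, so its error also holds the spread between replicates that the pairs share.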

How the results depend on the processing

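KP against N with vehicle gave 10 called members in polysome-associated and 9 in total mRNA, and with CR-31 8 and 11. Leaving out single lysates or replicates gave 6 to 15, 3 to 10, 4 to 12 and 6 to 13, and 0 to 12 in translational efficiency. The polysome-to-total ratio gave 0 to 17 in N and 0 to 20 in KP, and CR-31 effects and their difference 0 throughout. The share of all genes called also differed between these fits, so the ranges show no excess over the background. With no filter on low counts the ratio in N gave 5, in a fit of more genes whose share of calls is not given here. In efficiency of KP against N, DESeq2 gave 2 members and the regression on total mRNA 4. The offset for coding length gave 15 for KP against N with CR-31 in polysome-associated mRNA, where 30.5% of all genes were then called against 25% without it.

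For CR-31 in KP polysome-associated mRNA the replicate block gave 6 members, the block with the length offset 2 and the block without N replicate 3 14. Without N replicate 3 the block also gave 10 for KP efficiency, 8 for N polysome-associated mRNA and 7 for the difference, and the regression with the block gave 3 for KP efficiency. The block changed no other count of calls from 0. A block shared by N and KP, whose numbers do not pair, gave 11, 10, 10 and 13 for KP against N. The shares of all genes in these fits are not given, so no excess over the background can be read from them. Lane as a covariate was fitted only for the CR-31 effects and their difference, and gave 0 calls there. Directions turned for Dlat in N efficiency with the regression (0.000874) and with its block (0.23), and, without vehicle replicate 3, for Idh2 (0.0178; range over left-out lysates -0.75 to 0.02) and Pdhb (0.0128; range -0.73 to 0.01) in N polysome-associated mRNA. The cause of these changes was not tested. Of the other values of named members under alternatives, 1865 kept direction and side of the threshold, 320 lost the call and 26 gained it. With 3 replicates a group, log2 differences between KP and N in polysome-associated mRNA had an SE of 0.15 to 0.51, which limits what could be called.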
